A study of Danio rerio with 11 samples.

Results

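The comparison described here is that of total RNA from 8-cell zebrafish (Danio rerio) embryos of a pair of transgenic lines, one expressing tagged eIF4E1b and the other tagged eIF4E1c. It comprises all 3 libraries labelled eIF4E1b input and all 3 labelled eIF4E1c input, 6 of the 11 libraries of the series, chosen by these labels alone. The other 5 are RNA immunoprecipitation (RIP) libraries, in which the tagged protein was pulled from the lysate with the RNA attached to it. An input is the RNA of an aliquot of that lysate, taken before the pull-down. The lysates were cleared by centrifugation, per the study's methods, and the pellets were not sequenced. The eIF4E1b embryos carried the transgene tg(actb2:3xflag-sfGFP-eIF4E1b) and the eIF4E1c embryos tg(actb2:3xflag-sfGFP-eIF4E1c), both with the promoter of the beta-actin gene actb2 and an N-terminal tag of a FLAG repeat and superfolder green fluorescent protein. Per the study's methods, the plasmids were injected with Tol2 mRNA into embryos, the grown fish were crossed to wild type, and fluorescent offspring were raised. The wild type of the study is TLAB, a cross of AB and TL fish. The strain of the injected embryos is not named there. No group without a transgene was part of the comparison. The labels name the 3 libraries of a group biological replicates. The number of founders and of embryos per lysate is not given in the sources used here. Line, founder fish and tagged protein cannot be told apart in this design.

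At the 8-cell stage the zebrafish genome is still silent, and the embryo lives on RNA and protein that the mother laid down in the egg. eIF4E proteins bind the cap at the 5′ end of mRNAs, and the canonical family member recruits the scaffold eIF4G and through it the ribosome. eIF4E1b is a family member found in germ cells and early embryos, and eIF4E1c is a member of the family in fish.

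The 6 libraries held between 8609302 and 12987388 counts, with counts for 18674 to 19591 genes each, and eIF4E1c replicate 1 had the lowest total and the fewest genes. Values are normalized counts over these 6 libraries, that is, read counts divided by a size factor per library, so they are relative amounts. Libraries of lysates of whole embryos cannot tell fewer cells of a type from less RNA per cell. Counts also scale with transcript length, so levels are compared between libraries and not between genes. The label of the samples was examined with marker genes. RNAs of the early embryo were abundant in every library: buc, the organizer of the germ plasm, lay between 10650 and 15160, and nanog, an activator of the zygotic genome, between 5164 and 6878. Of 14 blood markers, 2 were abundant enough to be tested, and of 22 liver markers none was, with summed levels of 8.45 to 19.99 in eIF4E1b input and 11.8 to 16.3 in eIF4E1c input. The summed levels of 6 testis markers stayed between 9.99 and 33.4, those of 18 epidermis and muscle markers between 111 and 223, and those of 21 first zygotic genes between 79.0 and 134. Of these lists no gene was called, but few of their genes were tested. These were 2 for blood, 0 for liver, 1 for testis, 5 for epidermis and muscle and 3 first zygotic genes. With 2.33% of all tested genes called, lists this small would mostly hold no call. The 14 blood markers summed to 74.5 to 91.05 in eIF4E1b and 48.1 to 96.6 in eIF4E1c input. Most of this came from the 2 tested ones, hbae5, at 28.7 to 49.0 per library, and epb41b, at 15.7 to 48.8. gata1a, which defines red blood cells, had at most 0.98 normalized counts in any library. The 13 ovarian somatic markers summed to 3343 to 3649 in eIF4E1b and 2583 to 3007 in eIF4E1c input, nearly all of it from CYP17A1 and a gene named CYP11A1 (ENSDARG00000002347), enzymes of steroid synthesis, neither of which was called.

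To ask how far the maternal transcriptomes of the lines differed, each library was compared with each other over 11260 genes with a mean of at least 50 normalized counts. Pairs within a line differed by a median of 0.160 to 0.273 on the log2 scale, and pairs across the lines by 0.196 to 0.372. These ranges overlap. The largest difference was between replicate 1 of each line, which stood at the ends of the leading principal component, with -13.2 and 13.4 on an axis that held 53.5% of the variance of the 500 most variable genes. All 3 eIF4E1b libraries lay on the negative side of that axis and all 3 eIF4E1c libraries on the positive side. The share of genes that differed by over 2-fold was 2.45% to 5.73% within lines and 4.26% to 12.1% across them.

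**Figure D1:**
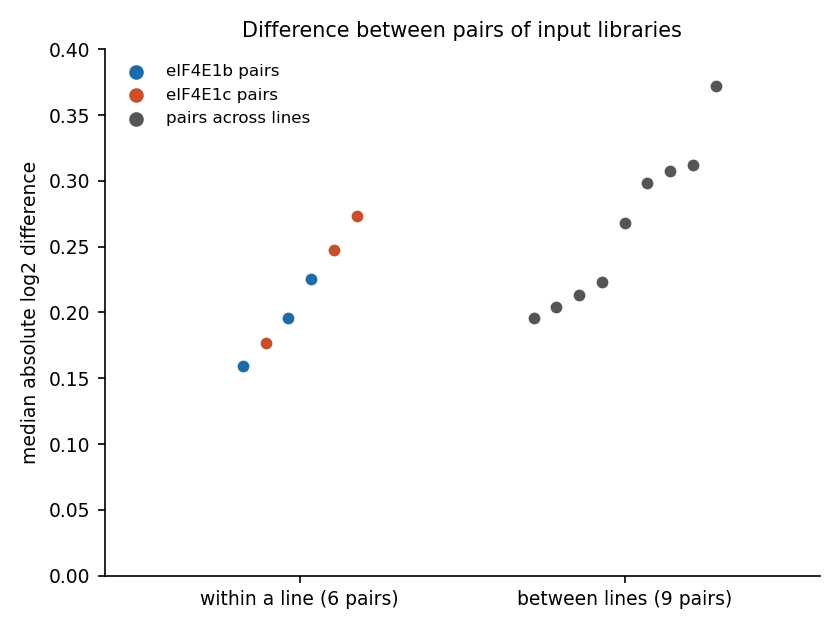
Median absolute log2 difference (y axis) of each pair of input libraries over 11260 genes, for pairs within a line (blue, eIF4E1b; orange, eIF4E1c) and pairs across lines (grey); each point is 1 pair. Pairs across lines spanned 0.196 to 0.372 and overlapped those within a line, at 0.160 to 0.273.

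Most genes did not pass the test. Of 15281 genes tested with the Wald test of DESeq2 at a Benjamini-Hochberg adjusted p under 0.005, 356 were called, which is 2.33%. eIF4E1b input was the higher in 136 of them (0.89% of genes tested), and eIF4E1c input in the other 220 (1.44%). Over all tested genes the absolute log2 fold change of eIF4E1b over eIF4E1c had a median of 0.26, 90% of genes were within 0.99 and 99% within 2.85. The signed median was 0.01. All 356 called genes had groups that did not overlap, but so did 12.9% of tested genes with eIF4E1b above and 13.2% with eIF4E1c above. The count depended on the test. edgeR's quasi-likelihood test called 14 of 14539 genes (0.0963%) at the same threshold, 12 higher in eIF4E1b and 2 higher in eIF4E1c, and 213 (1.47%) at an adjusted p under 0.05. Of the DESeq2 calls, 76 and 131 had an edgeR adjusted p under 0.05. The total became 212 without eIF4E1b replicate 1 and 210 without eIF4E1c replicate 3. Genes higher in eIF4E1b numbered 73 without eIF4E1b replicate 1 and 70 without replicate 2, and genes higher in eIF4E1c numbered 139 without eIF4E1b replicate 1 and 116 without eIF4E1c replicate 3. Called in all 6 fits that left out a library were 43 genes higher in eIF4E1b and 75 higher in eIF4E1c, and 43 and 74 of them had an edgeR adjusted p under 0.05.

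The median of the mean counts was 178 for genes called higher in eIF4E1b and 191 for those higher in eIF4E1c, against 226 over all tested genes. The differences of called genes were larger at low counts, where only large differences can pass the threshold. The median SE of the log2 fold change was 0.86 under a mean of 20 and 0.14 above 2000. Over all tested genes of these levels, called or not, the median absolute log2 fold change was 0.65 and 0.14. Among the 2214 tested genes with a mean under 20, 13 and 10 were called, with a median absolute log2 fold change of 5.25. Among the 4344 genes with means of 100 to 500, 63 were higher in eIF4E1b (1.45%) and 84 in eIF4E1c (1.93%), with a median of 1.27. Above a mean of 2000 the directions were uneven: of 1600 genes, 2 (0.125%) were higher in eIF4E1b and 20 (1.25%) higher in eIF4E1c, with a median of 0.66. More than 4-fold differences, a log2 fold change over 2, were seen in 53 of the genes higher in eIF4E1b and 76 of those higher in eIF4E1c. Together the called genes took 1.62% to 1.69% of all counts in eIF4E1b input and 1.99% to 2.16% in eIF4E1c input.

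**Figure D2:**
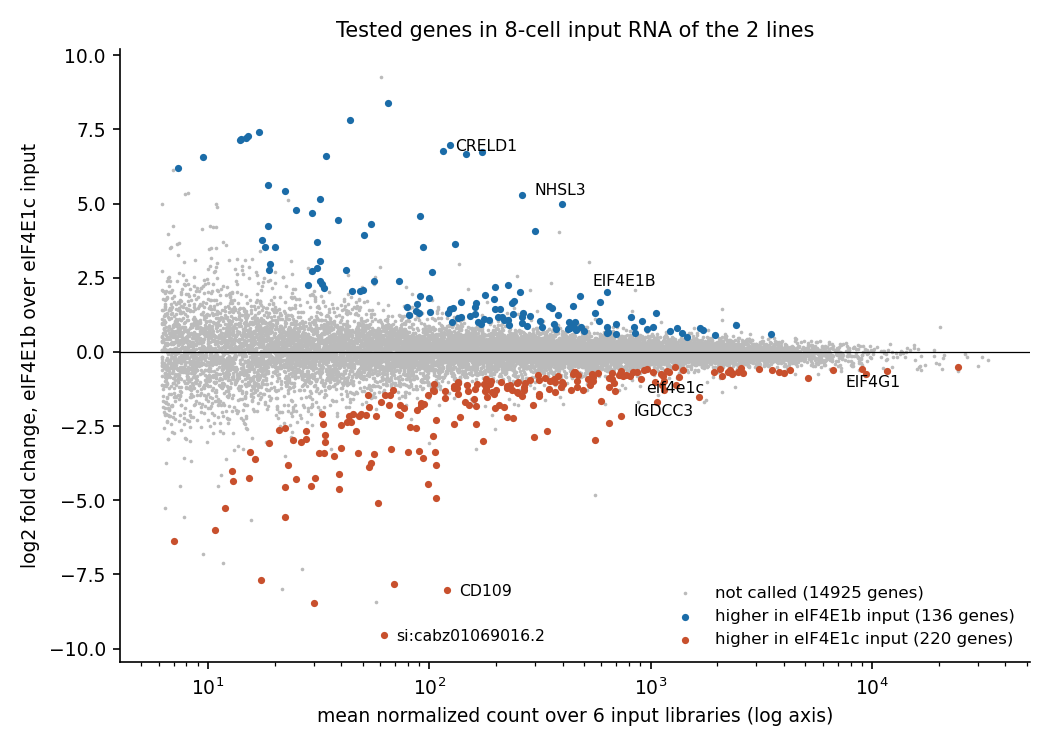
Log2 fold change of eIF4E1b over eIF4E1c input (y axis) against the mean normalized count over the 6 libraries (x axis, log) for the 15281 genes tested; each point is 1 gene. The 136 genes higher in eIF4E1b (blue) and the 220 higher in eIF4E1c (orange) stand at the edges of the cloud of the 14925 genes that were not called (grey), and above a mean of 2000 nearly all called genes are orange.

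The labels were first held against the genes of the tagged proteins. Reads from a transgene's coding sequence cannot be told from those of the endogenous gene, and the counts hold both. eif4e1b (EIF4E1B in the name table, ENSDARG00000014565) had 893, 678 and 700 normalized counts in eIF4E1b input (757 ± 118, SD, n = 3) and 158, 237 and 221 in eIF4E1c input (205 ± 41.98, SD, n = 3). eif4e1c (ENSDARG00000012274) had 678, 630 and 607 in eIF4E1b input (638 ± 36.0, SD, n = 3) and 1066, 1093 and 939 in eIF4E1c input (1033 ± 82.3, SD, n = 3). Each gene was higher in all 3 libraries of its own line, with no overlap. Groups were also apart in 12.9% of all tested genes with eIF4E1b above and 13.2% with eIF4E1c above. On the log2 scale eif4e1b differed by 1.88 ± 0.20 (SE; adjusted p 7.66e-17 by DESeq2) and eif4e1c by -0.69 ± 0.15 (SE; adjusted p 0.000169). The mean of eif4e1b was 3.69-fold that of the other line, and that of eif4e1c 1.62-fold. With edgeR the adjusted p was 0.00359 for eif4e1b and 0.0279 for eif4e1c, so the latter was not past the threshold there. actb2, whose promoter and 5′ untranslated region drive both transgenes, had 4276, 6317 and 6215 normalized counts in eIF4E1b and 9482, 7293 and 9698 in eIF4E1c input. Its log2 difference of -0.66 ± 0.18 (SE) was short of the threshold, at an adjusted p of 0.00717 by DESeq2.

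Among other cap-binding and scaffold genes the only further call was EIF4G1, the scaffold that joins eIF4E to the ribosome. It had 4317, 5397 and 6052 normalized counts in eIF4E1b and 8606, 7774 and 7724 in eIF4E1c input. The log2 difference was -0.61 ± 0.15 (SE; adjusted p 0.00188 with DESeq2 and 0.0532 with edgeR). Of the 21 tested members of the eIF4E family and its partners, 1 was higher in eIF4E1b (4.76%) and 2 in eIF4E1c (9.52%), against 0.89% and 1.44% of all genes, but 2 of these 3 calls are the genes that the transgenes carry. The list had a median log2 fold change of -0.10 against 0.01 over all genes tested. Of 91 other translation factors, including tRNA synthetases and eIF2 kinases, none was higher in eIF4E1b and 2 (2.2%) were higher in eIF4E1c, with a median of -0.11. These were EIF2AK4, the gene of the kinase GCN2 that senses uncharged tRNA and phosphorylates eIF2α, and IARS1, the isoleucyl-tRNA synthetase. EIF2AK4 had 313, 369 and 334 normalized counts in eIF4E1b and 703, 733 and 751 in eIF4E1c input, which is -1.11 ± 0.16 (SE) on the log2 scale (DESeq2 adjusted p 9.60e-10). IARS1 had 154, 291 and 335 against 578, 560 and 497, at -1.07 ± 0.25 (SE) and an adjusted p of 0.0014. Neither gene's groups overlapped, which held for every called gene and, with eIF4E1c above, for 13.2% of all tested genes. GCN1, whose protein activates GCN2 on ribosomes and which was singled out after its values were seen, was also higher in eIF4E1c, with 1223, 1524 and 1847 against 2897, 2362 and 2817 and a log2 fold change of -0.81 ± 0.17 (SE; DESeq2 adjusted p 0.000162).

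Several of the 20 genes with the smallest adjusted p were near 0 in the line where they were lower, and others, such as GOLM2, were abundant in both lines. On the eIF4E1b side, NHSL3, a member of the Nance-Horan syndrome-like family, had 714, 356 and 469 normalized counts in eIF4E1b and 15.0, 9.27 and 15.7 in eIF4E1c input. This was the smallest adjusted p of all genes (DESeq2, 7.25e-45), at a log2 difference of 5.29 ± 0.36 (SE). ppp2r5ca, a regulatory subunit of protein phosphatase 2A, had 271, 186 and 411 against 2.72, 4.64 and 0.98. CRELD1, an endoplasmic reticulum protein with EGF-like repeats, had 178, 318 and 187 against 0, 2.78 and 2.94. For all 3 genes the lowest eIF4E1b library was over 10 times the highest eIF4E1c library. Their neighbours in rank were spata6l, a gene named after spermatogenesis, with 206, 141 and 178 against 4.08, 8.35 and 8.83, and ATP10B, a P4-type ATPase that flips membrane lipids, with 123, 95.4 and 95.0 against 4.08, 4.64 and 6.87. ENSDARG00000030723, named CLDN11 after a tight junction protein, had 192, 146 and 183 against 6.80, 18.5 and 17.7. ENSDARG00000099650, which has no symbol, had 144, 296 and 287 against 35.4, 14.8 and 10.8. Smaller ratios at higher levels were seen for si:ch73-252p3.1, with 921, 1132 and 1003 against 173, 294 and 288, and si:ch73-389k6.1, with 385, 462 and 392 against 122, 81.6 and 103. Across these 10 genes, eif4e1b included, the log2 fold change ran from 1.88 to 6.77, the largest DESeq2 adjusted p was 6.01e-14, and the edgeR adjusted p was under 0.005 for all but ENSDARG00000099650 (0.00677).

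On the eIF4E1c side, CD109, a membrane-anchored co-receptor that modulates TGF-beta signalling, had 2.82, 0 and 0 normalized counts in eIF4E1b and 152, 252 and 314 in eIF4E1c input. With 3 counts in all 3 eIF4E1b libraries together, the ratio of eIF4E1c over eIF4E1b was 272 with a 95% counting interval (exact binomial) of 92.7 to 1322. HAO2, a peroxisomal oxidase of hydroxy acids, had 3.75, 0 and 6.27 against 154, 92.7 and 97.2. Both were present in all eIF4E1c libraries and at or near 0 in all eIF4E1b libraries. ENSDARG00000024865, named DSCAM after an adhesion molecule of neurons, had 22.5, 11.8 and 8.96 against 297, 151 and 155. DPYSL4, of a family that acts in growing axons, had 15.0, 10.9 and 22.4 against 227, 143 and 124. sspo, the giant secreted protein SCO-spondin of the Reissner fibre, had 104, 96.3 and 77.9 against 884, 519 and 367. Genes of the nervous system are thus among those named, but this list was ranked by p and not tested as a group. A pair of nuclear receptors followed: nr1d2a, a Rev-erb repressor of the circadian clock, with 11.3, 9.99 and 4.48 against 158, 329 and 76.5, and NR4A1, an immediate early gene in many cells, with 33.8, 13.6 and 8.06 against 230, 186 and 163. GOLM2, a Golgi membrane protein, had 607, 877 and 1063 against 2292, 2604 and 2481. IGDCC3, a cell surface protein of the immunoglobulin superfamily, had 152, 263 and 388 against 1375, 1285 and 945. The uncharacterized si:dkey-241f8.1 had 42.2, 48.2 and 60.9 against 382, 241 and 197. In all 10 genes the groups were apart, as in every called gene, and the choice by smallest p favours this. Groups were apart with eIF4E1c above in 13.2% of all tested genes. The log2 fold changes of the 10 genes ran from -8.04 (CD109) to -1.53 (GOLM2), and the largest DESeq2 adjusted p was 1.44e-12. With edgeR only CD109 was under 0.005 (0.00103), and the rest lay between 0.00537 and 0.0098.

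**Figure D3:**
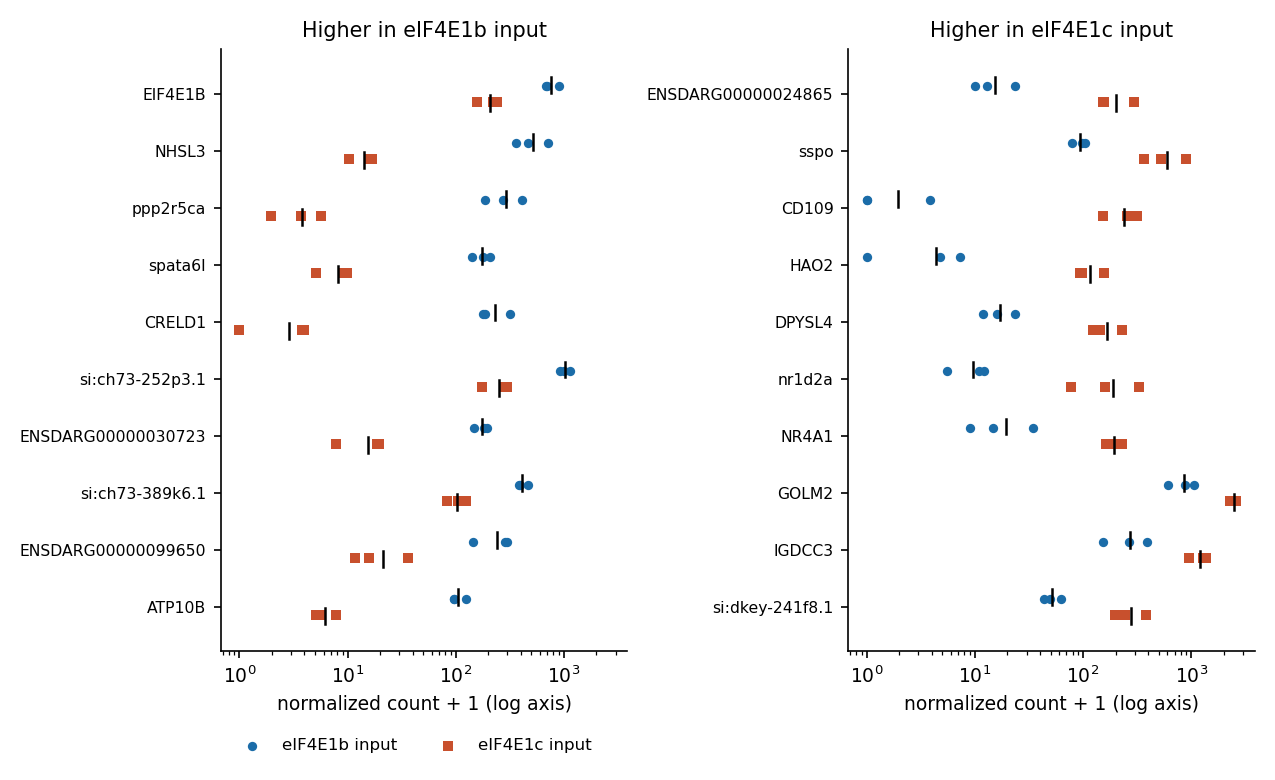
Normalized count plus 1 (x axis, log) in each input library for the 10 genes with the smallest adjusted p in each direction; blue circles are the 3 eIF4E1b libraries, orange squares the 3 eIF4E1c libraries, and black ticks the group means. The groups are apart for all 20 genes, as for every called gene, and the choice by smallest p favours this. Several genes sit at the bottom of the axis in the line where they are lower, as CD109 with 2.82, 0 and 0 in eIF4E1b input.

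Among the called genes, few transcripts were found in one line and not in the other. A count of 0 in every eIF4E1c library was seen for 7 of the genes higher in eIF4E1b, and in every eIF4E1b library for 4 of those higher in eIF4E1c. At most 3 counts in each library of the other line were seen for 17 and 12 called genes. Genes that were not tested or not called were left out of these counts. The following were singled out after their values were seen, apart from znf1147. si:cabz01069016.2 had 122, 130 and 121 normalized counts in eIF4E1c input and 0 in each eIF4E1b library, so it was at least 45.3-fold higher in eIF4E1c when 0 is set to a floor of 3 counts per library. COLEC12, a scavenger receptor with a lectin domain, had 92.0, 87.2 and 82.4 in eIF4E1b input and 1 count in all eIF4E1c libraries together, a ratio of 247 with a 95% counting interval (exact binomial) of 44.0 to 9782. Both genes were nearly even across the libraries of the line that had them. znf1147, a zinc finger gene, had 47.9, 40.9 and 2.69 in eIF4E1b input and 0 in eIF4E1c input, at least 9.33-fold higher over the same floor, with eIF4E1b replicate 3 far under the other libraries of its line. Intervals and floors cover counting error only.

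Most called genes were more even than this in the line where they were higher, with a median ratio of the highest to the lowest library of 1.41 for genes higher in eIF4E1b and 1.45 for genes higher in eIF4E1c. That ratio was over 2 in 28 of the 136 genes higher in eIF4E1b and 57 of the 220 higher in eIF4E1c, and over 5 in 11 and 9. It was not computed over all tested genes, and the test favours genes that are even within a line. The examples that follow were chosen for their unevenness. tmprss15, the intestinal protease enteropeptidase, had 9.39, 234 and 498 normalized counts in eIF4E1b input against 0, 3.71 and 1.96. pik3ap1, an adaptor of PI3 kinase in immune cells, had 993, 613 and 86.9 against 27.2, 35.2 and 38.3. sned1, an extracellular matrix protein, had 442, 90.9 and 501 against 4.08, 0.93 and 4.91. The low library was eIF4E1b replicate 1 for tmprss15, replicate 3 for pik3ap1 and replicate 2 for sned1. These examples are all from the eIF4E1b side, and the library that stood apart was not counted over the other uneven genes. Their DESeq2 adjusted p-values were 0.00117, 0.000432 and 2.17e-09.

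Among abundant genes the differences were modest. The called genes with the highest mean counts on the eIF4E1c side included ENSDARG00000068992, which the name table gives as HSPA8, the constitutive Hsp70 chaperone. It had 18030, 21290 and 21390 normalized counts in eIF4E1b and 29490, 26490 and 29620 in eIF4E1c input (log2 difference -0.50 ± 0.12, SE; DESeq2 adjusted p 0.00353). ENO3, a glycolytic enolase, had 5109, 8299 and 7748 against 13360, 9724 and 12080, and EIF4G1, described above, was the next protein-coding gene. On the eIF4E1b side these were API5, an inhibitor of apoptosis, CLSTN1, a calsyntenin that links kinesin to cargo, MAF1, the repressor of RNA polymerase III, si:dkey-230p4.1, and ENSDARG00000090912, named NPC2 after a lysosomal cholesterol carrier. MAF1 had 2340, 2001 and 2165 against 1216, 1309 and 1352, at 0.75 ± 0.13 (SE; DESeq2 adjusted p 2.80e-06). API5 had 4929, 4177 and 3611 against 2874, 3049 and 2432, and CLSTN1 2517, 2173 and 2343 against 1502, 1496 and 1705. No log2 fold change among these abundant protein-coding genes exceeded 0.90 in size, and none of them had an edgeR adjusted p under 0.005.

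Genes of the storage and germ-line programmes of the egg are given next. Over all tested genes 2.33% were called, so that lists of this size would hold 0 or 1 call at the same share. Of 28 tested germ plasm genes, 42 genes of mRNA decay, 21 activators of the zygotic genome, 15 zona pellucida genes, 15 meiosis genes and 35 histone genes, none was called in either direction. Their median log2 fold changes lay between -0.10 (germ plasm) and 0.11 (meiosis), against 0.01 over all genes. buc had 10650, 12330 and 13780 normalized counts in eIF4E1b and 11710, 15160 and 14080 in eIF4E1c input, at -0.16 ± 0.15 (SE), with overlapping groups. pou5f3, a maternal activator of the zygotic genome, had 2872, 2397 and 2342 against 2017, 1904 and 1668, at 0.45 ± 0.14 (SE) and a DESeq2 adjusted p of 0.0381. Its groups did not overlap, as in 12.9% of all tested genes with eIF4E1b above, and the difference was short of the threshold. Of 32 genes of maternal mRNA storage, 1 was called, IGF2BP2, an mRNA-binding protein, with 171, 157 and 83.3 against 405, 399 and 361 (log2 fold change -1.50 ± 0.26, SE; DESeq2 adjusted p 1.38e-06). Of 32 genes of maternal Wnt signalling and dorsal fate, 1 was higher in eIF4E1b, AXIN2, a scaffold of the complex that destroys beta-catenin, with 1460, 1415 and 1658 against 762, 859 and 1155 (0.71 ± 0.18, SE; DESeq2 adjusted p 0.0029).

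Housekeeping complexes held 1 or 2 called genes each, a share of 1.12% to 2.47% that is near or under the 2.33% of all tested genes. The 89 cytosolic ribosomal protein genes had 1 call, rplp2, a stalk protein higher in eIF4E1c, and a median of -0.09. The 75 mitochondrial ribosomal protein genes had 1 in the other direction, mrpl30, with 374, 348 and 391 normalized counts against 50.3, 130 and 153, and a median of 0.09. Of 99 nuclear genes of the respiratory chain, cycsb, a cytochrome c, was higher in eIF4E1c and NDUFB7, a complex I subunit, in eIF4E1b. Of 72 splicing genes, SNRPB2, a protein of the U2 particle, was higher in eIF4E1b, with 1484, 1098 and 1107 against 589, 632 and 576 (1.04 ± 0.17, SE; DESeq2 adjusted p 1.18e-07), and the median of the list was 0.18. PSMG3, a proteasome assembly chaperone, was the only call of 52 proteasome genes, higher in eIF4E1b, with 308, 311 and 292 against 65.3, 50.1 and 148. Of 81 heat shock and chaperonin genes, HSPA12A, with 165, 136 and 116 against 431, 324 and 337, and the HSPA8 gene above were higher in eIF4E1c.

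**Figure D4:**
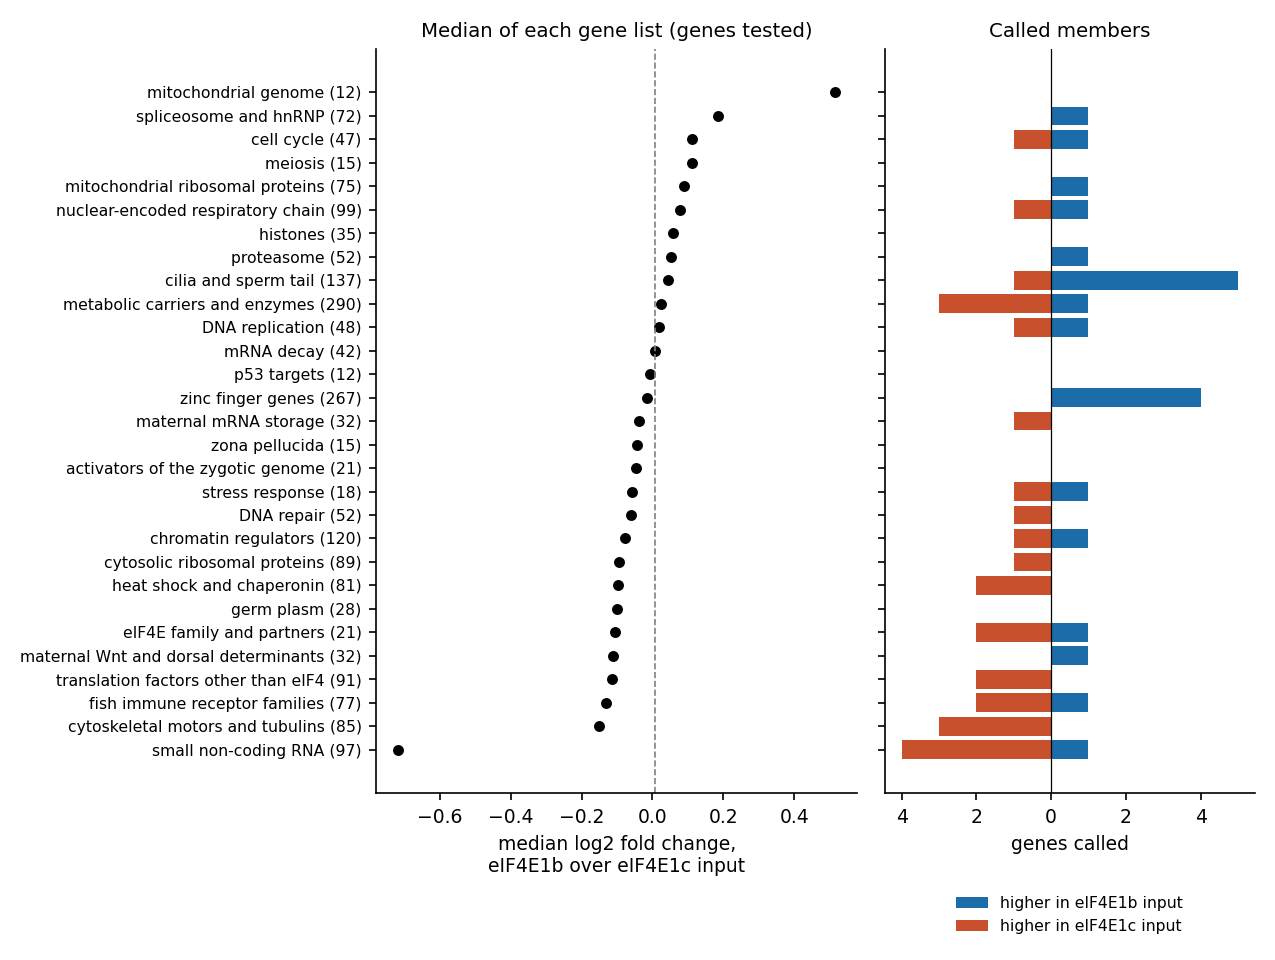
Median log2 fold change of eIF4E1b over eIF4E1c input (left, points) and number of called genes (right, bars; blue, higher in eIF4E1b; orange, higher in eIF4E1c) for gene lists with at least 12 tested genes, whose number stands in brackets; the dashed line is the median of all tested genes, 0.01. Small non-coding RNA, at -0.72 (-0.13 without replicate 1 of both lines), and the mitochondrial genome, at 0.52 (-0.19 without eIF4E1b replicate 1), lie away from the other lists, and no list has more than 6 called genes.

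In the lists of DNA metabolism and the cell cycle the calls went both ways, with at most 1 call per list and direction. Shares called higher in eIF4E1b and in eIF4E1c were 0% and 1.92% for repair genes. They were 2.08% each for replication genes, 2.13% each for cell cycle genes, 0.833% each for chromatin regulators and 5.56% each for stress response genes. Over all genes they were 0.89% and 1.44%. fancm, a helicase that acts at stalled replication forks, had 358, 429 and 400 normalized counts in eIF4E1b and 924, 870 and 1143 in eIF4E1c input, and was the only call of 52 repair genes (-1.31 ± 0.17, SE; DESeq2 adjusted p 7.91e-12). LIG1, the ligase that joins Okazaki fragments, had 2550, 2954 and 3515 against 4822, 5315 and 4791. RPA2, a subunit of the single-strand binding protein, had 514, 607 and 607 against 355, 325 and 354, so that among 48 replication genes there was 1 call in each direction. Among 47 cell cycle genes WEE1, the kinase that holds back CDK1, was higher in eIF4E1b, with 705, 494 and 455 against 293, 321 and 331, and ccnd3, a D-type cyclin, was higher in eIF4E1c, with 51.6, 60.9 and 67.2 against 166, 115 and 170. Of 120 chromatin regulators, the CHD-type remodellers CHD9 and CHD2 were called, CHD9 at 1.03 ± 0.19 (SE) and CHD2 at -0.57 ± 0.15 (SE). Of 18 tested stress response genes, ATF3, a transcription factor of the stress response, had 299, 346 and 334 against 49.0, 116 and 47.1 (2.20 ± 0.32, SE; DESeq2 adjusted p 1.55e-09), and JUND, another AP-1 family factor, had 83.5, 90.9 and 95.8 against 165, 195 and 181 (DESeq2 adjusted p 0.00239). All 12 tested p53 targets were short of the threshold.

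The list of cilia and sperm tail genes had the most calls in the eIF4E1b direction, 5 of 137 tested (3.65%, against 0.89% of all genes), with 1 in the other, and a median of 0.04. It was defined by symbol and takes in all genes named for a coiled-coil domain, many of which are not ciliary. ccdc88b, a coiled-coil protein of the Girdin family and one of these, had 955, 817 and 545 against 4.08, 38.9 and 29.4. cfap210, named after cilia and flagella, had 108, 109 and 152 against 8.16, 35.2 and 25.5. The remaining calls were spata6l, described above, ccdc137 and ccdc126, all higher in eIF4E1b, and cfap36, higher in eIF4E1c. Of 85 genes of motors and tubulins 3 were called (3.53%), each higher in eIF4E1c, where 1.44% of all genes were: myo1hb, an unconventional myosin, with 57.3, 44.5 and 47.5 against 395, 111 and 174, KIF21B, a kinesin, with 497, 1006 and 970 against 1789, 1833 and 1691, and ENSDARG00000103394, named KIF5B, with 227, 213 and 249 against 452, 385 and 343. Of 267 zinc finger genes 4 were higher in eIF4E1b (1.5%, against 0.89% of all genes), namely znf1147, znf1083, ZNF384 and ZNF622. None was higher in eIF4E1c, where 1.44% of all genes were. Immune receptor families, which vary between fish in sequence and copy number, had 3 calls of 77 (1.3% and 2.6% by direction, against 0.89% and 1.44%), mhc1zka higher in eIF4E1b and mhc1haa and ftr86 higher in eIF4E1c. Reads of such near-identical copies may be split by the counting, so these values are uncertain.

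Of 290 metabolic carriers and enzymes, 1 was higher in eIF4E1b (0.345%) and 3 in eIF4E1c (1.03%), both shares under those of all genes, 0.89% and 1.44%. acsl3a, which activates fatty acids, had 104, 95.4 and 77.0 normalized counts in eIF4E1b and 424, 296 and 245 in eIF4E1c input (-1.80 ± 0.26, SE; DESeq2 adjusted p 3.04e-09). ACSS3, an acyl-CoA synthetase of mitochondria, had 110, 113 and 143 against 291, 258 and 220, and SLC15A2, a peptide transporter, 28.2, 34.5 and 35.8 against 65.3, 134 and 161. In each of these 3 genes all eIF4E1c libraries were above all eIF4E1b libraries. This held for every called gene of that direction, and for 13.2% of all tested genes. The median of the metabolic list was 0.02, near that of all genes.

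The clock and the nuclear receptors were looked at after nr1d2a had been seen among the genes with the smallest p. Since nr1d2a prompted the choice, the calls among clock genes are given as values and not as a count of the list. cry5, a DNA photolyase of the cryptochrome family, had 363, 376 and 352 normalized counts against 151, 150 and 181, at 1.18 ± 0.20 (SE; DESeq2 adjusted p 4.18e-07). cry3b, a cryptochrome, had 1122, 1330 and 1486 against 790, 601 and 819, at 0.83 ± 0.17 (SE; DESeq2 adjusted p 0.000162). Both were higher in every eIF4E1b library, as was every called gene of that direction and 12.9% of all tested genes. The other tested genes of the family were not called: cry3a was at 0.18, CRY2 at 0.15, cry-dash at -0.01 and cry4 at -0.39. Clock genes of other families were not called either, apart from nr1d2a, with PER3 at 0.09, PER2 at -0.01, TIMELESS at -0.13 and bmal2 at -0.15. The nuclear receptors that follow were picked from the called genes, and the number of nuclear receptors tested was not counted. RXRB, a retinoid X receptor that pairs with many nuclear receptors, had 691, 802 and 534 against 1831, 1381 and 1691, at -1.27 ± 0.18 (SE; DESeq2 adjusted p 1.15e-09). NR1H3, the liver X receptor alpha, had 711, 815 and 694 against 1122, 1197 and 1091, at -0.62 ± 0.14 (SE; DESeq2 adjusted p 0.000942).

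Small non-coding RNA lay toward eIF4E1c as a list, to an extent set by replicate 1. Of 97 such genes tested, 82 had a negative log2 fold change and 15 a positive one, with a median of -0.72 against 0.01 over all genes, and 5 were called, 1 higher in eIF4E1b (1.03%) and 4 higher in eIF4E1c (4.12%), against 0.89% and 1.44% of all genes. The summed level lay between 172000 and 261100 normalized counts in eIF4E1b and between 258700 and 354600 in eIF4E1c input, ranges that just overlap. Without eIF4E1c replicate 1 the median of the same 97 genes was -0.33, and without replicate 1 of both lines it was -0.13, with 37 genes positive. Under the alternative scalings it stayed between -0.71 and -0.66. Most of it came from near-identical copies of 7SL, the RNA of the signal recognition particle, among them rn7sl1-5 with 7405, 11360 and 8780 against 14740, 13020 and 14950. Called with it, in the same direction, were the 7SL copies ENSDARG00000114352, ENSDARG00000111095 and ENSDARG00000087015, and in the other direction rn7sk, the RNA that holds the elongation factor P-TEFb inactive, with 169, 184 and 155 against 91.1, 90.9 and 73.6. SRP9, a protein of the same particle that binds 7SL and was picked after its values were seen, went the other way, with 519, 439 and 163 against 72.1, 89.0 and 74.6, at 2.25 ± 0.35 (SE; DESeq2 adjusted p 3.61e-08). RO60, a protein that binds small RNAs and was chosen likewise, had 234, 138 and 192 against 46.3, 56.6 and 100, at 1.47 ± 0.34 (SE; DESeq2 adjusted p 0.000891).

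RNA of the mitochondrial genome was uneven within the lines. It took between 0.0225% and 0.134% of the counts of a library, and what clearing the lysates did to this share was not tested. Of 12 tested genes, 11 had a positive log2 fold change, where 50.9% of all tested genes did. The median of the 12 genes was 0.52, against 0.01 over all genes. None was called, but with 2.33% of all tested genes called, a list of this size would mostly hold no call. MT-CO1, a cytochrome oxidase subunit, had 6106, 2163 and 1311 normalized counts in eIF4E1b and 2303, 1546 and 1053 in eIF4E1c input, so replicate 1 was the highest library of each line and the groups overlapped. Without eIF4E1b replicate 1 the median of the list turned to -0.19, with 4 genes positive, and without eIF4E1c replicate 1 it was 1.26. MT-CO1 itself differed by 0.97 ± 0.74 (SE) on the log2 scale (DESeq2 adjusted p 0.515). The part of this difference between libraries in the other results was not tested, but without replicate 1 of both lines 227 genes were called, of which 54 higher in eIF4E1b and 101 higher in eIF4E1c were also called with all 6 libraries.

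The RIP libraries of the same lines gave a second reading of the line difference, from pull-downs of the lysates and with another library kit. They are not independent of the inputs. Per the study's methods an input was kept back from each lysate, so input and RIP share embryos as well as lines. Of the 136 genes higher in eIF4E1b input, 127 were tested between the RIPs, and 99 of these had the same sign there, with a median log2 fold change of 1.41. Of the 220 genes higher in eIF4E1c input, 186 were tested and 153 had the same sign, with a median of -0.99. The 13225 genes not called in the input had a median of -0.02 between the RIPs, and 49.4% had a positive sign. Same sign and a DESeq2 adjusted p under 0.005 between the RIPs were found for 39 and 37 genes, where 7.95% of all genes tested between the RIPs were called in either direction. Examples are CRELD1, at 6.77 in the input and 9.76 between the RIPs, NHSL3, at 5.29 and 7.97, ATF3, at 2.20 and 4.75, and NR4A1, at -3.39 and -3.36. In eIF4E1c RIP the counts of CRELD1 and NHSL3 were at or near 0, so the direction of their RIP values can be read but their size is uncertain. eif4e1b itself was at 1.88 and 1.55, whereas eif4e1c was at -0.69 in the input and 0.30 between the RIPs, where its adjusted p was 0.694.

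**Figure D5:**
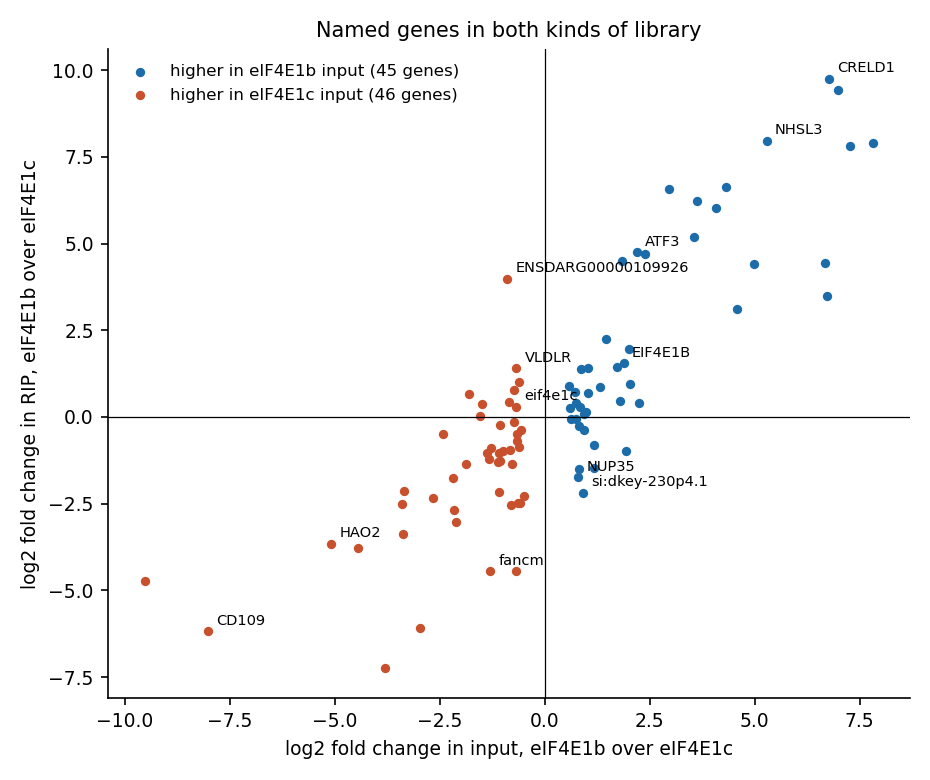
Log2 fold change of eIF4E1b over eIF4E1c in RIP libraries (y axis) against that in input libraries (x axis) for the named genes that were called in the input; blue, 45 genes higher in eIF4E1b input; orange, 46 genes higher in eIF4E1c input. Genes with large input differences such as CRELD1 and NHSL3 lie in the same direction on both axes, while ENSDARG00000109926, VLDLR and NUP35 lie in opposite directions. The RIP values of CRELD1 and NHSL3 rest on eIF4E1c RIP counts at or near 0. Some plotted genes, such as rn7sl1-5, ENSDARG00000114352 and ATP8B4, were near absent from all RIP libraries and not tested there, so their direction between the RIPs cannot be read.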

How the data were processed

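Embryos were lysed at the 8-cell stage, and RNA was sequenced from inputs with a stranded kit that removes ribosomal RNA and from RIPs with a low-input kit. Per the labels, Trim Galore (0.5.0), Bowtie2 (2.3.4.1), featureCounts of Subread (1.6.2), DESeq2 (1.18.1) and R (3.4.1) were named for the processing, with the GRCz11 assembly. The annotation release, the strand setting and the treatment of multi-mapping reads are not given in the sources used here, so genes that overlap, antisense or near-identical genes are uncertain. The values the authors deposited are raw read counts per gene, 1 file per library, with no normalization, for 32520 Ensembl identifiers, of which 29201 had a symbol in the name table used here. Where a symbol was missing or shared, the identifier is printed.

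Main test: the Wald test of DESeq2 (1.42.0, R 4.3.3), which the study also used, on the 6 input libraries. Counts were scaled by median-of-ratios size factors, log2 fold changes were left unshrunken and independent filtering was on. The threshold was a Benjamini-Hochberg adjusted p under 0.005. The study states a P value under 0.005 for this contrast and reports more transcripts than the 136 and 220 genes called here. Its counts are close to the 364 and 500 called here at an adjusted p under 0.05. Alternatives were edgeR (4.0.16) quasi-likelihood and limma (3.58.1) voom, other scalings and filters, an adjusted p under 0.05, a replicate block, all 11 libraries in one fit, and leaving out each library. RIP values are from a DESeq2 fit of the 5 RIP libraries. Replicates were not copies, since chi-square divided by its degrees of freedom was 9.64 to 19.0 within lines. A count of 0 allows up to 3 counts per library, or 0.231 to 0.349 CPM (counts scaled to a common total). With 3 against 3 libraries a permutation or rank test of a single gene cannot pass the threshold. The code was tested on simulated data.

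Gene lists were defined by symbol. Named genes are eif4e1b and eif4e1c, the 10 with the smallest adjusted p and the 5 with the highest mean among called genes in each direction, and up to 3 called genes per list. The others, among them rn7sk, znf1083 and the marker genes, were chosen after their values were seen. Lists and the comparison itself were chosen with earlier results of these data known. Chromosome positions are not reported because the annotation used here is of another build (GRCz12tu), and a check of neighbouring genes was void because that annotation matched 64.3% of called genes, under the 80% needed.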

Additional observations from a re-analysis of the deposited data

Results flagged for a closer look

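For called genes the line difference was compared between RIP and input libraries by the interaction of line and kind of library in DESeq2 over all 11 libraries. Called genes were selected by their input difference, which the interaction subtracts, so its values lean against the input direction. Of 343 called genes with a value, 38 (11.1%) had an adjusted p under 0.005, against 8.97% of all 14194 genes. Named genes among them are given as the log2 line difference in RIP minus that in input. ENSDARG00000109926, which has no symbol, had 275, 274 and 217 normalized counts in eIF4E1b input and 476, 412 and 549 in eIF4E1c input, but 155, 237 and 289 in eIF4E1b RIP and 17.1 and 12.3 in eIF4E1c RIP. Its difference was 4.99 ± 0.54 (SE; DESeq2 adjusted p 1.00e-16), with the direction turned. Turned as well were VLDLR, a receptor for lipoproteins including yolk, at 2.18 ± 0.39 (SE), and NUP35, a nuclear pore protein, at -2.45 ± 0.46 (SE). These 3, named after their values were seen, were the only genes called in opposite directions in input and RIP.

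The sign also differed for si:dkey-230p4.1 (-3.01), ENSDARG00000090912 (-2.25), cry5 (-2.58), ubb (-2.87), acsl3a (2.51) and NR1H3 (1.69), where the RIP difference was short of the 0.005 threshold. In si:dkey-230p4.1 the first eIF4E1c RIP library stood apart, with 26520 against 3253 normalized counts in the second and 2442 to 4091 in eIF4E1b RIP. GOLM2 (1.63) and si:dkey-241f8.1 (2.03) were nearer to equal between the RIPs than between the inputs. The difference was larger in RIP than in input for ATF3 (2.63), fancm (-3.06) and ENSDARG00000068992 (-1.72). RIP and input libraries were made with different kits, so pull-down and kit cannot be told apart in these values.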

How the results depend on the processing

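The total of 356 calls (136 and 220) became 14 (12 and 2) with edgeR, 2 (1 and 1) with limma voom, 864 (364 and 500) at an adjusted p under 0.05, 109 (50 and 59) with all 11 libraries in one fit and, chosen after seeing the data, 227 (83 and 144) without replicate 1 of both lines. Leaving out 1 library gave 210 to 315 in total, 70 to 136 higher in eIF4E1b and 116 to 185 higher in eIF4E1c. None of the 356 genes was called in the opposite direction under any of the 17 alternatives. The share higher in eIF4E1b was 38.2%, 85.7% of the 14 edgeR calls and 47.9% with total count scaling, which moved the median gene to 0.06. For eif4e1c the call was lost with edgeR (-0.69, adjusted p 0.0279), limma voom (-0.69, adjusted p 0.0326) and all 11 libraries (-0.70, adjusted p 0.249), and for eif4e1b with limma voom alone (1.86, adjusted p 0.00707). Whether replicate numbers mark a shared batch is not given in the sources used here. Deviations of same-numbered libraries correlated at -0.02, -0.09 and 0.11, and those of differently numbered ones at -0.12 to 0.13. RNA of the mitochondrial genome was highest in replicate 1 of each line, as given above. The fit with a replicate block called 270 genes (105 and 165), 87 and 136 of them shared. Of the 67 genes named by rule, the call was lost by 55 of 66 with edgeR, 66 of 66 with limma voom, 38 with all 11 libraries, 17 with the block, and 2 to 27 under the other DESeq2 fits at 0.005.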

Other observations

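A few further called genes, all chosen after their values were seen, belong to none of the groups above. The calmodulin genes calm2a, with 1036, 797 and 917 normalized counts in eIF4E1b and 331, 606 and 497 in eIF4E1c input, and CALM2, with 299, 234 and 350 against 81.6, 181 and 128, were both higher in eIF4E1b, with DESeq2 adjusted p-values of 0.000872 and 0.00253. Their coding sequences are closely related, so reads may be shared. ubb, a polyubiquitin gene, had 345, 234 and 265 against 78.9, 100 and 43.2 (log2 fold change 1.93 ± 0.31, SE; DESeq2 adjusted p 7.80e-08). The receptor notch2 had 1096, 657 and 640 against 218, 450 and 288 (1.32 ± 0.27, SE; DESeq2 adjusted p 0.000111), and erbb3b, a receptor of the epidermal growth factor family, had 250, 138 and 79.7 against 35.4, 21.3 and 74.6, at 1.83 ± 0.47 (SE; DESeq2 adjusted p 0.00446). For erbb3b the highest eIF4E1c library was close to the lowest eIF4E1b library. ATP8B4, a lipid flippase of the same family as ATP10B, went the other way from it, with 5.63, 9.09 and 2.69 against 73.5, 49.1 and 60.8 (-3.40 ± 0.57, SE; DESeq2 adjusted p 5.37e-07).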
